A study of Mus musculus with 6 samples.

Results

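The proliferating cells of mouse visceral fat were 74 of 2114 kept cells (3.50%) in a single-cell RNA-seq study of sorted myeloid cells. Members were chosen by measured values: a cell was a member when its raw counts of unique molecular identifiers (UMIs, 1 per captured RNA molecule) for Mki67, Top2a, Birc5, Cdk1, Ube2c and Nusap1 summed to at least 3 and those for Col3a1 and Col1a2 summed to under 6. The collagen limit removed 0 cells. The 2040 other kept cells are those with at least 200 genes and at most 10% mitochondrial UMIs that did not meet the rule.

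Cells carrying CD45 (Ptprc) and CD11b (Itgam) were sorted from digested epididymal fat of mice on a diet labelled HFD (3 samples) and mice on the control diet (3 samples), and both groups went through the same digestion and sort. Strain, age, sex and time on diet are not given in the sources used here. The labels do not say whether the 3 samples of a diet are different mice. P-values therefore reflect sample-to-sample spread alone, which may be technical. Ptprc was detected in 60 members and Itgam in 49, and their levels did not pass the test between members and other cells (log2 fold change 0.03 ± 0.15 for Ptprc and -0.24 ± 0.18 for Itgam, SE, edgeR adjusted p = 0.948 and 0.485).

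A dividing cell copies its DNA in S phase, prepares in G2 and separates its chromosomes in mitosis (M). Genes of S phase are switched on largely through E2F factors, while many G2/M genes are held down in resting cells by the DREAM complex at a CHR element and are activated through B-MYB, FOXM1 and NF-Y, which binds CCAAT boxes. Macrophages of adult tissues can arise from blood monocytes or by division in place, and local division of macrophages has been described in the fat of obese mice.

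The libraries shared barcodes, and depth differed between members and the rest. The files held 5511 entries for 2195 distinct barcodes, of which 1082 were listed in several samples. Each barcode was counted once, in the sample where it had most UMIs. Of the 74 members, 58 had a barcode listed in several samples, and the second largest entry held a median of 0.155 times the UMIs of the largest. Members had a median of 18918.5 UMIs, against 8439 in other kept cells. By diet, members had a median of 19335 UMIs in HFD samples and 15561 in control samples, while other cells had 9507 in HFD samples and 7132 in control samples. Deposited UMIs per sample ranged from 5078891 to 6992602 in HFD samples and from 4477100 to 5572766 in control samples. A raw count threshold is met more readily by a deep cell, so shares are also given after thinning each cell to 3000 UMIs.

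The rule genes act late in the cycle. Mki67 encodes the nuclear proliferation antigen Ki-67, Top2a untangles replicated DNA, Birc5 (survivin) belongs to the chromosomal passenger complex, Cdk1 is the kinase that drives entry into mitosis, Ube2c supplies ubiquitin to the anaphase-promoting complex and Nusap1 bundles spindle microtubules. Because these values chose the members, they are given as a description. Birc5 had a UMI in 60 of 74 members (81.1%) and in 2.99% of other cells, and Nusap1 in 33 members (44.6%) and 0.735% of other cells. Mki67, Top2a, Cdk1 and Ube2c were detected in 45, 50, 47 and 52 members. All 6 genes were seen together in 19 members, and 4 members met the threshold through 1 gene alone. Over the summed members of a sample, Birc5 stood at 231, 208 and 247 CPM (counts scaled to a common library size) in HFD members, against 261, 204 and 231 CPM in control members. Ube2c stood at 163, 208 and 220 CPM in HFD members, against 169, 265 and 389 CPM in control members. The diets overlapped in both genes.

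Members held a median of 9 rule UMIs and at most 112. Just inside the threshold, 9 cells had 3 rule UMIs, 10 had 4 and 11 had 5, and just outside it 56 cells had 2. The remaining 44 members, 28 from HFD and 16 from control samples, had over 5. Cells with 2 rule UMIs had a median depth of 17038.5 UMIs, close to the 17791.5 of members with 3 to 5.

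The promoters of the rule genes are shown because 4 of the 6 carry the G2/M promoter letters. Each window spans 250 bases before to 50 bases after the transcription start (RefSeq, build GRCm38.p6), read along the gene. Capitals mark TTTGAA (the CHR letters) and CCAAT, in either orientation (TTCAAA and ATTGG), including 1 pair that overlaps as CCAATTGG.
Cdk1, chr10:69352863-69353162, minus strand: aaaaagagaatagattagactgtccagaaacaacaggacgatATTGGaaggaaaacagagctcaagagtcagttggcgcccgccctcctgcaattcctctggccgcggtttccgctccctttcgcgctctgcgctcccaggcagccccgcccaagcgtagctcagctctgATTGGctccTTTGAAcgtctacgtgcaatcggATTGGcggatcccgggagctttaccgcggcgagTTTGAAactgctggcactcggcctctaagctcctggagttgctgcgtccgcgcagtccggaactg
Top2a, chr11:99024140-99024439, minus strand: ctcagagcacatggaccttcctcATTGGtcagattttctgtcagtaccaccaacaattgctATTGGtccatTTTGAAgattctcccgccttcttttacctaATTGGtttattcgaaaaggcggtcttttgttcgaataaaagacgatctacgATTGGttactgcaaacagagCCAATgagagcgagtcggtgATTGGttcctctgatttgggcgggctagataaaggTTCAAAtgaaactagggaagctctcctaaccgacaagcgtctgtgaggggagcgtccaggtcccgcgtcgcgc
Ube2c, chr2:164769679-164769978, plus strand: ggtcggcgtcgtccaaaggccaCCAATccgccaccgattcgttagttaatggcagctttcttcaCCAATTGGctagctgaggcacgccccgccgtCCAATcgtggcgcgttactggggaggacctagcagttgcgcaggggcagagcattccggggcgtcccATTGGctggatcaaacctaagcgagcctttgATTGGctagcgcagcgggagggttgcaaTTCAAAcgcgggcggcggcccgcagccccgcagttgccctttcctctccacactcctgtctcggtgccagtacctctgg
Mki67, chr7:135716330-135716629, minus strand: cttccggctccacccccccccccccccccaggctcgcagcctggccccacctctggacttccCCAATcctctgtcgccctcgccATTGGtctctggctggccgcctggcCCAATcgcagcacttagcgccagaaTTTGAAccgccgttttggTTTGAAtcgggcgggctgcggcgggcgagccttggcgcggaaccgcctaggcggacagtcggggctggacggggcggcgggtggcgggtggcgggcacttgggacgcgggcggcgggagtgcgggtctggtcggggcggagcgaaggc

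TTTGAA was found in these 4 windows and not in those of Birc5 and Nusap1. Of 45 listed G2/M genes 37 matched the RefSeq table, and 30 of their 41 promoter windows (73.2%) held TTTGAA. Of 30 listed S phase genes 26 matched, and 3 of their 31 windows (9.68%) held it. Among all 32851 promoter windows the share was 17.9%. TTTGAA and CCAAT stood together in 63.4% of G2/M windows, 6.45% of S phase windows and 6.95% of all windows. A match is a description of the letters and not a bound site.

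Cycle genes that the rule did not use were common in the same cells, again as a description, since they go with the rule genes. Members with over 5 rule UMIs had a UMI for a median of 22 of 45 G2/M genes, members with 3 to 5 for 7 and other cells for 1. After thinning to 3000 UMIs the medians were 8, 1 and 0. At least 10 G2/M genes were detected in 43 of the 44 members with over 5 rule UMIs, in 9 of the 30 members with 3 to 5 and in 2 of 2040 other cells. Cyclin B1 (Ccnb1, the partner of Cdk1) had a UMI in 40 members (54.1%) and in 0.686% of other cells. Pbk, a mitotic kinase, had one in 28 members (37.8%) and in 0.490% of other cells. The S phase list of 30 genes had medians of 12.5, 6 and 2 genes in the same order. Rrm2, a subunit of the ribonucleotide reductase that makes DNA precursors, had a UMI in 31 members (41.9%) and in 1.72% of other cells. Pcna, the sliding clamp of DNA replication, had one in 56 members (75.7%) and in 50.5% of other cells. Of the members with 3 to 5 rule UMIs, 4 had under 3 G2/M genes.

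Members differed in phase. More UMIs of the G2/M list than of the S phase list were found in 47 members and the reverse in 27. The S-dominated members made up 52.0%, 45.5% and 30.8% of members in HFD samples 1, 2 and 3, against 27.3%, 12.5% and 16.7% in control samples 1, 2 and 3. The diets did not overlap, with means of 42.7% ± 10.9 in HFD and 18.8% ± 7.62 in control samples (SD, n = 3 each, two-sided exact permutation p = 0.1, the smallest this design allows). The control shares rest on 6 to 11 members a sample. Other cells with 0 rule UMIs held 3.54 S phase and 2.19 G2/M UMIs per 10000, so a cell near that level counts as S-dominated. Of the 4 S-dominated members of HFD sample 3, 1 had 3.20 S phase and 0 G2/M UMIs per 10000. The gap between 30.8% and 27.3% therefore rests on single cells of this kind. Phase shares were not computed at equal depth, and members pooled by diet had a median of 19335 UMIs in HFD and 15561 in control samples. Of the 27 S-dominated members 12 were among the 44 with over 5 rule UMIs. Over those 44 alone, S-dominated members were 4 of 13, 4 of 8 and 2 of 7 in HFD samples, against 1 of 5, 0 of 6 and 1 of 5 in control samples, and the shares again did not overlap (means 36.4% ± 11.8 in HFD and 13.3% ± 11.5 in control samples, SD, n = 3 each, exact permutation p = 0.1).

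**Figure D1:**
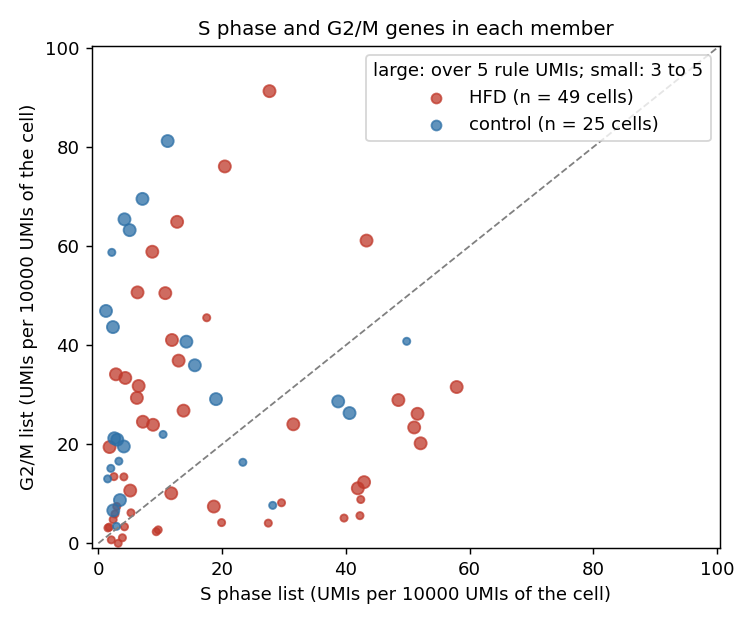
Each point is 1 of the 74 members, with its S phase list (x axis) and G2/M list (y axis) in UMIs per 10000 UMIs of the cell. Red marks HFD (49 cells), blue marks control (25 cells), large points had over 5 rule UMIs, and the dashed line marks equal values. Below the line, where S phase UMIs exceed G2/M UMIs, lie 22 HFD and 5 control members.

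Members were a larger share of kept cells in each HFD sample than in each control sample, but the diets overlapped at equal depth. They were 25 of 453 cells (5.52%), 11 of 295 (3.73%) and 13 of 380 (3.42%) in HFD samples, against 11 of 388 (2.84%), 8 of 260 (3.08%) and 6 of 338 (1.78%) in control samples. The exact binomial 95% intervals, which cover counting error only, overlapped between all samples, the farthest apart being 3.60% to 8.04% in HFD sample 1 and 0.654% to 3.82% in control sample 3. Means were 4.22% ± 1.13 in HFD and 2.56% ± 0.692 in control samples (SD, n = 3 each), a difference of 1.66 percentage points (two-sided exact permutation p = 0.1). Without HFD sample 1, which had the highest share, the difference was 1.01.

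After thinning to 3000 UMIs, members were 1.79%, 1.75% and 1.64% of cells in HFD samples, against 0.847%, 1.85% and 1.05% in control samples. Control sample 2 then stood above every HFD sample, and the difference was 0.479 percentage points (exact permutation p = 0.4). Thinning left out 7 to 14 shallow cells per HFD sample and 34 to 51 per control sample. With at least 5 rule UMIs the difference was 0.778 (p = 0.3), with at most 5% mitochondrial UMIs it was 1.34 (p = 0.3), and over barcodes listed in 1 sample it was 0.650 (p = 0.4, 2.03% in HFD and 1.38% in control samples), all by the exact permutation test and with overlap. The level of the 6 rule genes over all kept cells needs no threshold per cell and is given as a description. They took 1.01, 0.675 and 0.706 of 10000 UMIs in HFD samples, against 0.640, 0.541 and 0.538 in control samples, without overlap. Single cells weigh heavily in this level, as 1 member held 112 of the 579 rule UMIs of HFD sample 1.

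**Figure D2:**
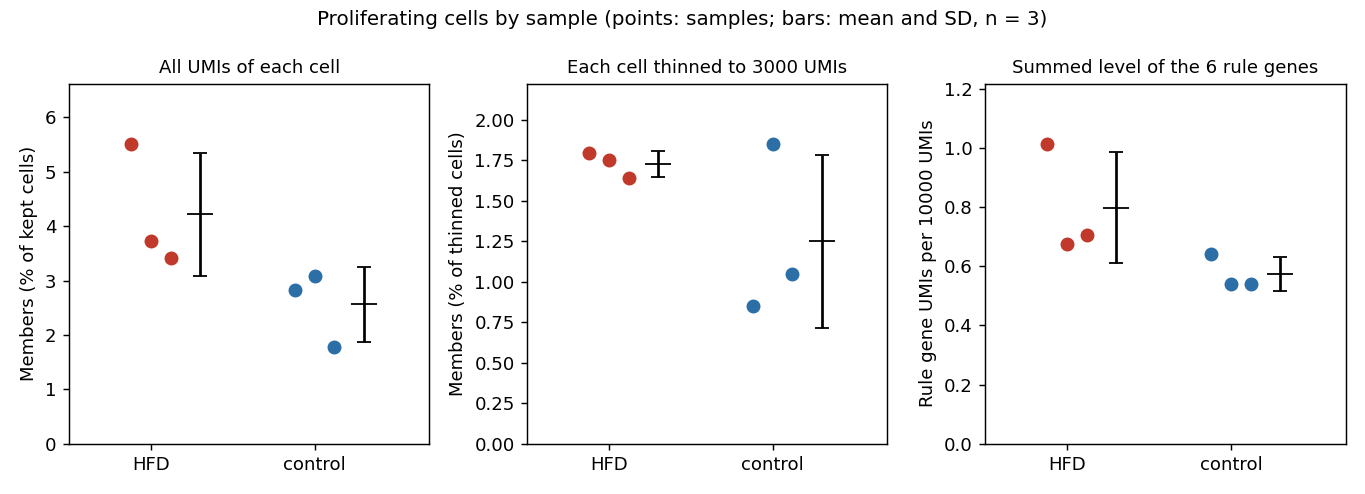
Members as a percent of kept cells (left), as a percent of cells thinned to 3000 UMIs (middle), and the rule genes' UMIs per 10000 UMIs of all kept cells (right), with 1 point a sample and the mean and SD beside them. HFD samples lie above all control samples at left and right, and control sample 2, at 1.85%, lies above all HFD samples in the middle panel.

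The members did not form a single cell type. Clustering all kept cells without cell cycle genes spread them over 13 of 17 clusters. Clusters were named from marker lists, or by their leading genes where markers were mixed. The lipid-associated macrophage-like cluster, led by Mmp12, Spp1 and Gpnmb, held 14 members among 193 cells (7.25%), all 14 among its 185 HFD cells and 0 among its 8 control cells. A macrophage-rich cluster led by Gdf15 and Hpgd held 13 among 258 (12 of 238 HFD cells and 1 of 20 control cells). A cluster led by Hbb-bs and Hba-a1, with 8 of 12 macrophage markers raised, held 12 among 154 (11 of 119 HFD cells and 1 of 35 control cells). Of all 74 members, 4 had a UMI of Hbb-bs and 2 of Hba-a1.

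Control members fell mostly elsewhere. The cluster led by Ear2 and Lyz1 held 6 among 144 cells (0 of 4 HFD cells and 6 of 140 control cells). The cDC2-like cluster, named from markers of type 2 dendritic cells, held 5 among 156 (0 of 52 HFD cells and 5 of 104 control cells). The cluster led by S100a9 and S100a8 held 5 among 179 (1 of 20 HFD cells and 4 of 159 control cells). The perivascular resident macrophage-like cluster held 2 among 284 (0.704%, 0 of 36 HFD cells and 2 of 248 control cells), at a median depth of 5910.5 UMIs, against 17044 in the lipid-associated cluster. At 3000 UMIs the shares were 0.403% in the perivascular and 4.21% in the lipid-associated cluster. The Gdf15-led and Hbb-bs-led clusters then stood at 1.59% and 2.03%, beside 1.48% in the Ear2-led and 1.99% in the cDC2-like cluster. The S100a9-led cluster stood at 0.719% and the T cell-like cluster at 4.76%. T cell-like cells held 5 members among 53 (9.43%, 3 of 23 HFD cells and 2 of 30 control cells).

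Members were 0 of 231 fibroblast-like cells, which allows a share of up to 1.30%, 0 of 123 classical monocyte-like cells (up to 2.44%), 0 of 39 migratory dendritic cell-like cells (up to 7.69%) and 0 of 21 B cell-like cells (up to 14.3%). HFD and control cells lay in different clusters, so no cluster gave at least 20 cells in 2 samples of each diet, and shares within a cluster were not tested between diets. These cluster shares are sums over samples and carry no replicate error.

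**Figure D3:**
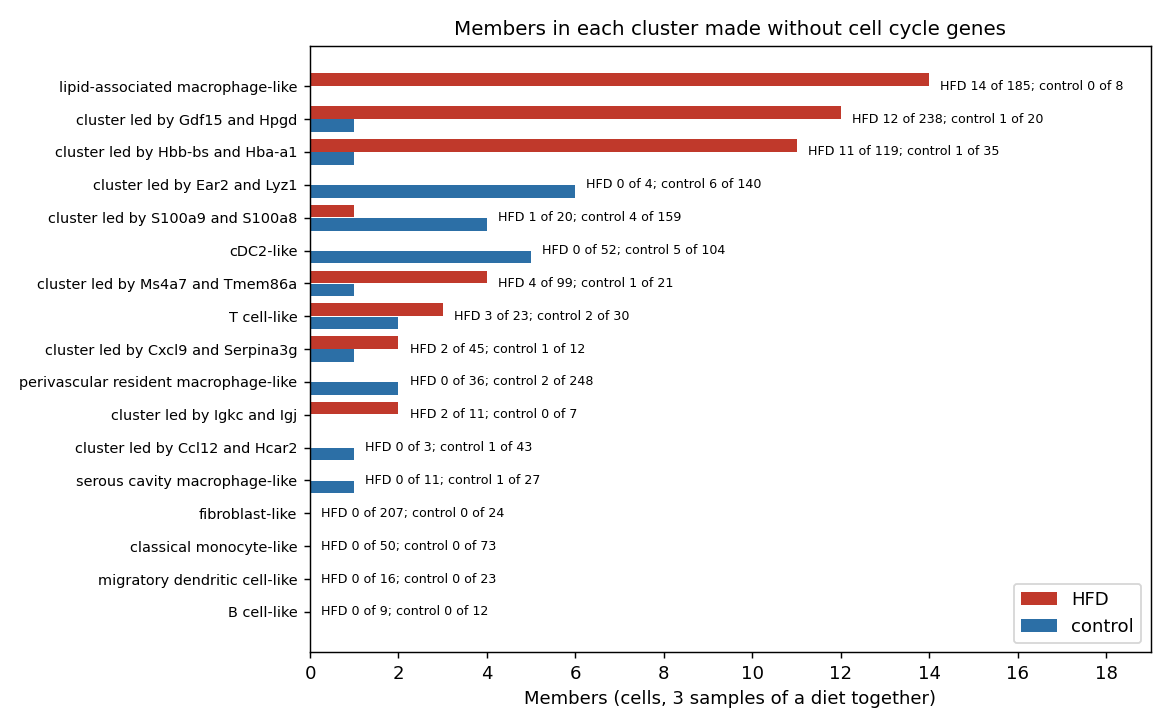
Number of members (x axis) in each cluster (y axis), HFD in red above control in blue, with the members and cells of each diet printed beside the bars. HFD members fill the lipid-associated, Gdf15-led and Hbb-bs-led clusters (14, 12 and 11 cells), and control members the Ear2-led and cDC2-like clusters (6 and 5 cells).

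Most members carried macrophage RNA. C1qa, a chain of the complement starter C1q, had a UMI in 73 of 74 members (98.6%) and in 93.1% of other cells, or in 87.3% and 84.3% at 3000 UMIs. Its pooled level was 1659 CPM in members, against 810 CPM in T cell-like and 268 CPM in fibroblast-like cells, which should lack it. Csf1r, the receptor for the macrophage growth factor CSF1, was found in 65 members (60.6% at 3000 UMIs, against 62.4% of other cells), and Emr1 (Adgre1, the F4/80 antigen) in 62 (59.2%, against 51.5%). At 3000 UMIs Lgals3 (galectin 3) was found in 98.6% of members and 91.7% of other cells, Trem2, a lipid-sensing receptor, in 60.6% and 49.7%, and Gpnmb in 56.3% and 39.2%. Pooled by diet, Trem2 stood at 1142 CPM in HFD and 160.1 CPM in control members, and at 4.84 CPM in members of control sample 1.

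Dendritic list genes differed widely in how many members carried them. At full depth, where members were deeper than other cells, Irf8, Tnip3, Batf3, Itgax, Naaa, Cadm1 and Wdfy4 had a UMI in 33 to 49 members. Irf8, a transcription factor, had one in 49 (21.1% at 3000 UMIs, against 23.6% of other cells). Cadm1 had 131 UMIs in HFD and 1 in control members, while the cDC2-like cluster held 0 HFD and 5 control members. Cd209a, a lectin of type 2 dendritic cells, had a UMI in 24 members (21.1% at 3000 UMIs, against 19.2% of other cells). Flt3, the growth factor receptor of dendritic cell precursors, was found in 7 members, and Zbtb46, a dendritic transcription factor, in 9. The type 1 dendritic markers Clec9a and Xcr1 were found in 3 and 2 members, all in control sample 1. T cell receptor parts were at a low level, with Cd3g in 5 members and Trbc2 in 6. The median C1q UMIs per 10000 in members and other cells were 74.4 and 107 in the lipid-associated cluster, 84.7 and 137 in the Gdf15-led cluster, 11.1 and 10.4 in the cDC2-like cluster and 12.2 and 11.1 in the T cell-like cluster.

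Against other kept cells of the same samples, 9 of 12 listed macrophage genes made up a smaller share of the RNA of members. The test compares shares of summed UMIs. Members had more UMIs per cell (median 18918.5, against 8439 in other kept cells), so a lower share need not mean fewer molecules per cell. Of 8894 genes tested on UMIs summed per sample, 437 (4.91%) were higher and 665 (7.48%) lower in members (edgeR quasi-likelihood test, adjusted p below 0.05, sample as a block). Levels in the next paragraphs are CPM after TMM scaling in this fit. Of 12 macrophage genes 9 were lower and 0 higher, with a median log2 fold change of -0.65, against -0.09 over all genes. Apoe, the lipid carrier apolipoprotein E, stood at 6302, 4481 and 4486 CPM in members of HFD samples and 4408, 5227 and 2682 CPM in members of control samples. In other cells it stood at 14498, 14871 and 12949 CPM in HFD samples and 10417, 8831 and 10405 CPM in control samples. Members were lower in 6 of 6 samples (log2 fold change -1.40 ± 0.12, SE, edgeR adjusted p = 1.85e-09).

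Lyz2 (lysozyme) averaged 8018 ± 2239 CPM in members and 13852 ± 1700 CPM in other cells (SD, n = 6 samples; -0.82 ± 0.10, edgeR adjusted p = 1.22e-06). C1qa, C1qb, C1qc, Csf1r, Ctsc and Emr1 were lower by 0.45 to 0.84 on the log2 scale, while Cd68, Fcgr1 and Mertk did not pass. Of 13 perivascular resident genes 11 were lower, among them Gas6, a ligand that helps clear dying cells (69.5 ± 15.1 CPM in members and 199.5 ± 29.4 CPM in other cells, SD, n = 6, -1.47 ± 0.17, edgeR adjusted p = 3.41e-07), and the haemoglobin scavenger receptor Cd163 (-1.17 ± 0.26, edgeR adjusted p = 0.0025).

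With other cells weighted to the members' cluster mix, 7 of 12 macrophage genes were still lower (among them Apoe -1.18 and Lyz2 -0.84), Csf1r did not pass (log2 fold change -0.32, edgeR adjusted p = 0.132), and 2 of 12 perivascular genes were lower, with Cd163 not among them (-0.50, edgeR adjusted p = 0.323). At 3000 UMIs 8 of 11 macrophage genes were lower. Of 10 MHC class II genes, which load peptides for T cells, 5 were lower (H2-Ab1 -0.48 ± 0.11, Cd74 -0.47 ± 0.10). Of 18 lipid-associated genes 4 were lower, namely Fabp4, Cd63, Ctsd and Anpep, and Trem2 and Gpnmb did not pass (-0.25 ± 0.18 and 0.11 ± 0.15). Of 10 type 2 dendritic genes 0 passed in either direction, and of 5 type 1 dendritic genes tested 2 were higher, the endocytic adaptor Wdfy4 and the lipid amidase Naaa. Naaa stood at 53.3, 47.8 and 58.8 CPM in members of HFD samples, against 49.0, 44.8 and 60.8 CPM in other cells there. In control samples it stood at 742, 178 and 251 CPM in members, against 148, 159 and 112 CPM in other cells, so control sample 1 stood apart. Neither gene passed after thinning.

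**Figure D4:**
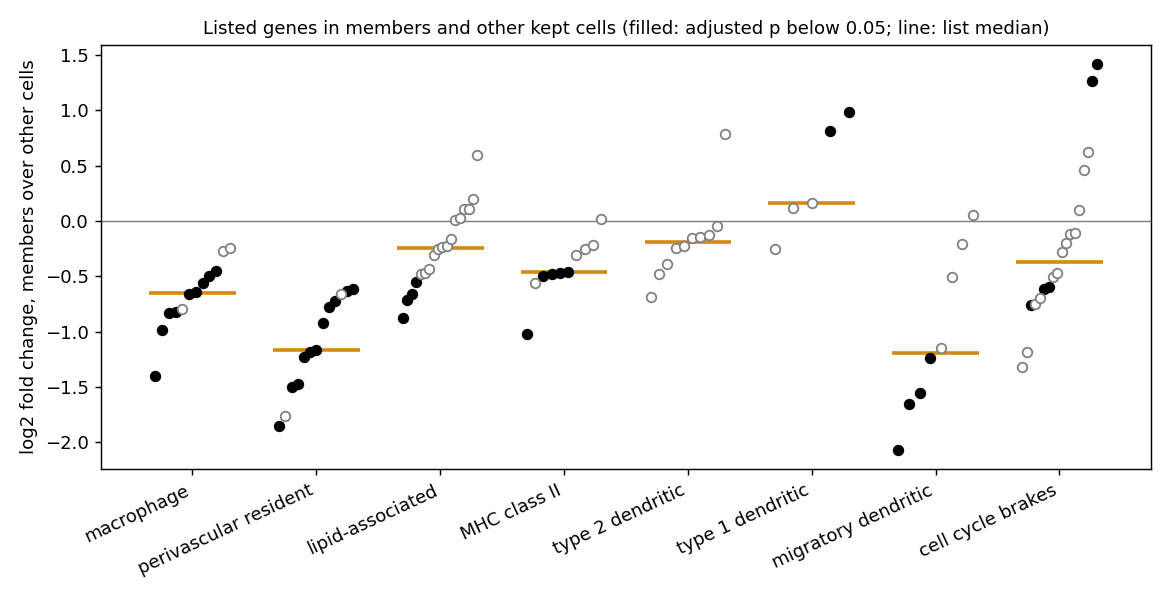
Each point is 1 gene of the list named on the x axis, with the log2 fold change of members over other kept cells on the y axis; filled points passed at adjusted p below 0.05 and lines are list medians. Macrophage and perivascular genes lie below 0 with medians of -0.65 and -1.17, and the 2 filled cell cycle brakes above 0 are Cdkn2c and Cdkn2d.

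Genes that brake or license the cycle were called in both directions, beside 4.91% of all genes higher and 7.48% lower. The lists are short, so a few calls say little about a list as a whole. Of 18 brakes 2 were higher, the CDK4/6 inhibitors Cdkn2c (61.8 ± 32.8 CPM in members and 26.3 ± 10.6 CPM in other cells, SD, n = 6, log2 fold change 1.26 ± 0.22, edgeR adjusted p = 0.000101) and Cdkn2d (54.1 ± 27.1 CPM in members and 22.04 ± 5.42 CPM in other cells, 1.42 ± 0.25, edgeR adjusted p = 0.000147). The antiproliferative genes Btg1 and Btg2 and the stress gene Gadd45b fell by 0.59, 0.76 and 0.62 on the log2 scale. The p53 target Cdkn1a did not pass (-0.12 ± 0.13). Of 23 growth and G1 genes 2 were higher, the kinases Cdk4 (0.61 ± 0.16) and Cdk2 (1.11 ± 0.35), whose calls were made in 4 and 1 of 6 fits that left out 1 sample, and 7 were lower, among them Csf1, Csf1r, Il4ra, Maf, Myc and Ccl2. Csf1 had 1 UMI in all members together. Myc, a growth transcription factor, had a log2 fold change of -0.88 ± 0.26, and of 0.04 without the fibroblast-like cells (edgeR adjusted p = 0.979).

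The next ranking left out the cell cycle lists and 113 other genes that correlated with the rule genes. Among the genes that remained, the 15 named for the largest rises in members were Dtymk, Vrk1, Nucks1, Dek, Ddx39, Anp32b, Exosc8, Anp32e, Pa2g4, Mrpl18, Cbx3, Siva1, Tuba1c, Hdgf and Nhp2. All 15 were higher in members in 6 of 6 samples, which was a condition for naming them. Dtymk, the kinase that makes dTDP for DNA synthesis, stood at 102, 153 and 145 CPM in members and 38.4, 37.6 and 43.3 CPM in other cells of HFD samples. In control samples it stood at 125, 37.5 and 77.2 CPM in members and 31.3, 27.4 and 36.4 CPM in other cells (1.60 ± 0.19, edgeR adjusted p = 5.01e-07). Members stood above other cells within each sample, and the members of control sample 2 were lowest, at a level just below that of other HFD cells. Vrk1, a chromatin kinase, averaged 97.6 ± 74.0 CPM in members and 33.0 ± 14.3 CPM in other cells, and Dek, a chromatin architectural protein, 239.7 ± 74.8 CPM in members and 101 ± 17.8 CPM in other cells (SD, n = 6). The 15 largest falls, led by Ccl11, Clec3b and Aebp1, included the matrix genes Dcn, Col1a1, Sparc and Bgn, and the fibroblast-like cluster held 0 members. Without the fibroblast-like cells 14 of these 15 genes were tested, and 0 kept their call (12 lower and 2 of the opposite sign, none passing). Dcn (decorin) averaged 111 ± 67.4 CPM in members and 1505 ± 947 CPM in other cells. At equal depth of 3000 UMIs the shares of cells with a UMI differed most for Snrpe (a spliceosome protein, 74.6% of members and 44.6% of others), Mrps14 (62.0% and 33.5%), Mrpl18 (47.9% and 19.8%), H2afy, Hn1, Anp32b, Rac2, Lat2, Ddx39 and Dek.

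Between diets, calls among the dividing cells fell on lipid-associated, MHC class II and interleukin 4 response genes, and HFD and control members lay mostly in different clusters. Of 2631 genes tested on summed members, 103 (3.91%) were higher and 108 (4.1%) lower in HFD than in control members (edgeR quasi-likelihood test, adjusted p below 0.05). Fewer cells of a type and less RNA per cell cannot be told apart in these sums. Levels here are CPM after TMM scaling over members alone. Of 18 lipid-associated genes 10 were higher and 0 lower, with a median log2 fold change of 1.72, against -0.00 over all genes. Of 10 MHC class II genes 6 passed the count filter, and these 6 were lower (median -1.41). Of 11 macrophage genes 0 passed in either direction.

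Ctsk, the collagen-cutting protease cathepsin K, stood at 732, 349 and 1671 CPM in HFD members, against 0, 25.2 and 24.2 CPM in control members. Its log2 fold change was 6.18 ± 0.82 (edgeR adjusted p = 0.00161), and no overlap between diets was a condition for naming it. Cpe (carboxypeptidase E) stood at 160, 166 and 82.0 CPM in HFD members, against 5.63, 0 and 0 CPM in control members. Its 141 UMIs in HFD and 1 UMI in control members give a ratio of 51.8 with a 95% counting interval of 9.14 to 2059. Cadm1, an adhesion molecule listed here as a type 1 dendritic marker, had 131 UMIs in HFD and 1 in control members (ratio 48.1, 8.48 to 1914). The aldo-keto reductase gene Akr1b8 had 142 and 3 UMIs (ratio 17.4, 5.83 to 85.3), and Zranb3, a helicase of stalled replication forks, 91 and 3 (ratio 11.1, 3.69 to 55.0), in HFD and control members.

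The other named rises were Rnf128, Syngr1, Slc37a2, Mmp12, Ctsl, Gins2 and Cd72. Mmp12, the macrophage elastase, stood at 1413, 271 and 691 CPM in HFD members, against 11.3, 214 and 182 CPM in control members (2.80 ± 0.73, edgeR adjusted p = 0.0366), and lost its call in 9 of 16 alternative fits, as Syngr1 did in 8. Lgals3 stood at 7924, 10329 and 13700 CPM in HFD members, against 1290, 3457 and 4441 CPM in control members (1.81 ± 0.37, edgeR adjusted p = 0.014). The other lipid-associated genes that passed were Ctsd, Fabp4, Ctsl, Lipa, Plin2, Spp1, Cd36 and Cd63. Trem2 (2.39 ± 0.71, edgeR adjusted p = 0.0588) and Gpnmb (1.78 ± 0.90, adjusted p = 0.259) did not pass. Gpnmb stood at 1691, 1097 and 1291 CPM in HFD members, against 5.63, 75.7 and 1198 CPM in control members, where sample 3 lay inside the HFD range. With at least 5 rule UMIs per member 3 of 18 lipid-associated genes were higher, and leaving out 1 sample gave 3 to 15.

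Genes lower in HFD members included the interleukin 4 response genes Retnla, Ear2 and Mgl2, 3 of 5 tested. Chil3, of the same list, was not tested and went the other way. It had 23, 1 and 18 UMIs in members of HFD samples and 1 in all control members (ratio 15.4, counting interval 2.62 to 623). Retnla, a secreted resistin-like protein, stood at 733, 83.1 and 229 CPM in HFD members, against 4347, 11381 and 5179 CPM in control members (-4.25 ± 0.63, edgeR adjusted p = 0.00237). Mgl2, a galactose-binding lectin, stood at 20.8, 0 and 30.2 CPM in HFD members, against 214, 530 and 436 CPM in control members (-4.27 ± 0.51, edgeR adjusted p = 0.00121). Lyz1 stood at 64.2, 38.8 and 99.3 CPM in HFD members, against 1323, 820 and 1186 CPM in control members (-4.03 ± 0.32, edgeR adjusted p = 9.86e-05). The diets lay apart in all 3 genes, which was a condition for naming them. Lyz1 and Lyz2, the Ear genes and the Cd209 genes are near copies of each other, so reads may have been shared among them.

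H2-Ab1, a chain of the MHC class II protein I-A, stood at 4455, 3522 and 4439 CPM in HFD members, against 13791, 12870 and 12101 CPM in control members (-1.64 ± 0.17, edgeR adjusted p = 0.000894). Cd74, the chain that guards its groove, averaged 12589 ± 654 CPM in HFD members and 32604 ± 2588 CPM in control members (SD, n = 3 each, -1.37 ± 0.15, edgeR adjusted p = 0.000894). H2-Aa, H2-Eb1, H2-DMa and H2-DMb1 fell as well, by 1.27 to 1.90 on the log2 scale. Ccr2, the receptor that brings monocytes from blood, stood at 85.0, 88.6 and 47.5 CPM in HFD members, against 270, 353 and 387 CPM in control members (-2.13 ± 0.29, edgeR adjusted p = 0.00185). Cd209a averaged 25.1 ± 39.9 CPM in HFD members and 283 ± 55.1 CPM in control members (SD, n = 3 each, -2.89 ± 0.61, edgeR adjusted p = 0.0151), beside 0 HFD and 5 control members in the cDC2-like cluster. Il1b, the cytokine interleukin 1 beta, stood at 399, 382 and 492 CPM in HFD members, against 1504, 820 and 2602 CPM in control members (-1.95 ± 0.35, edgeR adjusted p = 0.0072). Of 7 perivascular genes tested 3 were lower, Cd209f, Cbr2 and F13a1. The other named falls were Cd24a, Naaa, Napsa, Ifitm6, Plbd1 and Fn1.

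By contrast C1qa stood at 1982, 1717 and 1714 CPM in HFD members, against 1948, 2183 and 1210 CPM in control members, and Csf1r at 369, 360 and 427 CPM, against 394, 467 and 375 CPM. Their fold changes were 0.02 ± 0.23 and -0.09 ± 0.22 on the log2 scale, and the diets overlapped.

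Of 16 S phase genes tested 2 were higher in HFD members (beside 3.91% of all genes), Gins2, part of the replicative helicase (67.6, 177 and 130 CPM in HFD, against 22.5, 12.6 and 12.1 CPM in control members), and the transcription factor E2f1, with 73 UMIs in HFD and 3 in control members (ratio 8.93, counting interval 2.94 to 44.3). The S phase median was 0.72 on the log2 scale. Of 16 G2/M genes 2 were lower (beside 4.1% of all genes), the centromeric histone Cenpa (-1.11 ± 0.30, edgeR adjusted p = 0.0386) and the anaphase activator Cdc20 (-1.78 ± 0.48, edgeR adjusted p = 0.0407), with a list median of -0.43. With at least 5 rule UMIs none of these 4 calls was made, and Gins2 and E2f1 were then not among the genes tested. The antiproliferative gene Btg2 was lower in HFD members (-0.92 ± 0.24, edgeR adjusted p = 0.0342).

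**Figure D5:**
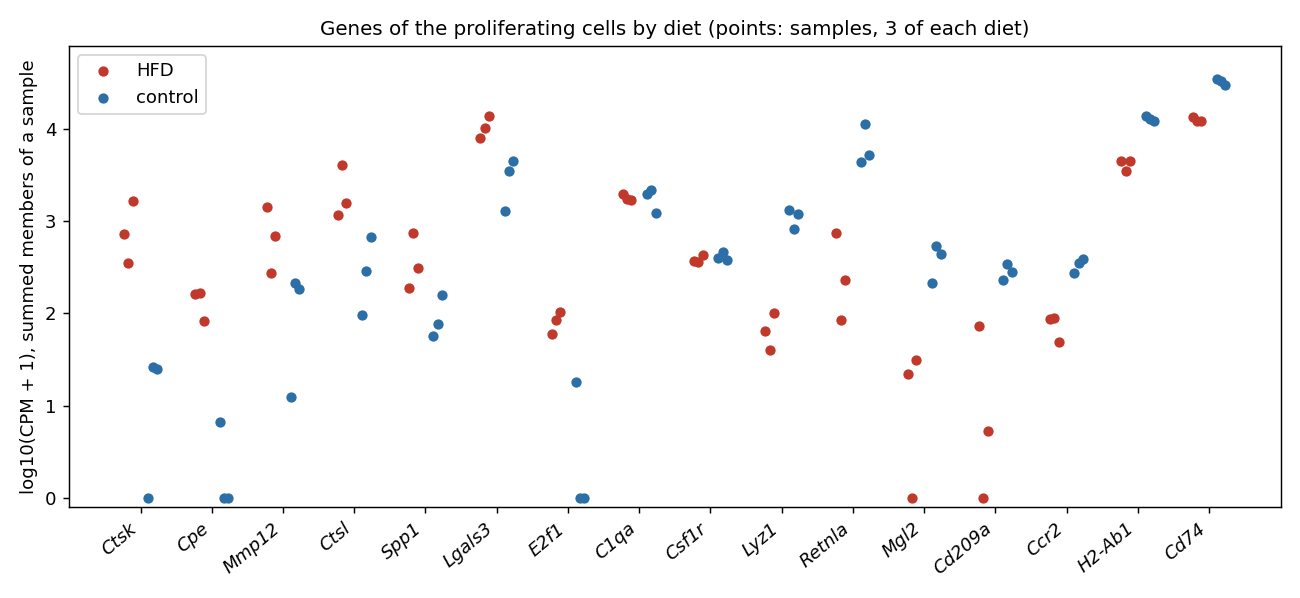
Level of 16 genes in the summed members of each sample, as log10(CPM + 1) on the y axis, with 3 HFD points (red) left of 3 control points (blue) for each gene. Ctsk, Cpe and Lgals3 lie higher in HFD, Lyz1, Retnla, Mgl2, Ccr2, H2-Ab1 and Cd74 lie lower in HFD, and C1qa and Csf1r overlap.

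The diet calls depended on single samples. Leaving out 1 sample lowered the 211 diet calls to 103 without control sample 1 and to 101, 102 and 99 without HFD sample 1, 2 and 3. With every deposited entry kept in its own sample 115 calls were made, 92 of them shared. No fit was possible over barcodes listed in 1 sample, since too few members remained. In the test of the diet effect in members minus that in other cells, 17 of 8894 genes (0.191%) were positive and 4 (0.045%) negative. Of the diet genes above, Ctsk (2.82 ± 0.65, edgeR adjusted p = 0.0461) and Ctsl (1.51 ± 0.35, edgeR adjusted p = 0.0461) were among them. Ctsk averaged 541 CPM in other HFD cells and 62.9 CPM in other control cells in that fit. For H2-Ab1 the difference in effect was -0.49 ± 0.18 (edgeR adjusted p = 0.466) and for Retnla -0.51 ± 0.52 (adjusted p = 0.958), which does not show that the effects were equal. Without the fibroblast-like cells, which are more numerous among other HFD cells (19.2% of them) than among other control cells (2.50%), 3 calls were made, all among the 21, and DESeq2's Wald test on all cells made 0 (288 genes at an unadjusted p below 0.05, against 594 by edgeR).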

How the data were processed

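The authors deposited 6 matrices of raw UMI counts per gene and cell barcode (33456 genes), 3 of mice on HFD and 3 on the control diet, per the labels. Per the submitters' processing notes, Cell Ranger, Seurat 2.4 and build mm9 were used, with no role given for each. Cells were sorted for CD45 and CD11b from collagenase-digested epididymal fat, per the labels' protocols.

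Each barcode was kept once, in the sample where it had most UMIs, with at least 200 genes and at most 10% mitochondrial UMIs. Groups were the diet labels. The members and gene lists were chosen with earlier results of these data known. Clusters came from scanpy 1.11.5 (2000 variable genes, 30 components, 20 neighbours, Leiden resolution 1.0), with 97 listed cycle genes and 113 correlated genes left out; the thresholds for naming clusters were set after the data were seen. Scrublet marked 22 cells (1.04%), 1 of them a member, and none was removed.

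UMI counts were summed per sample over members and over other cells. They were tested with edgeR 4.0.16 (R 4.3.3, TMM, quasi-likelihood, Benjamini-Hochberg adjustment), and the code was tested on simulated data. For shares, samples were permuted exactly (two-sided). With 3 samples against 3, p cannot fall below 0.1. Alternatives were DESeq2 1.42.0 and its size factors, no count filter, other UMI, gene and mitochondrial limits, thinning, every deposited entry in its own sample, and leaving out each sample. Others were added after seeing the data: fibroblast-like (or also lymphoid) cells left out, other cells weighted to the members' cluster mix, and phase shares over members with over 5 rule UMIs.

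Named genes were the 12 largest rises and 12 largest falls between diets without overlap, the 15 largest each way between members and other cells outside the cycle lists, and the 10 smallest adjusted p for the difference in diet effect, all at a mean of at least 50 CPM and adjusted p below 0.05. Listed genes were added to these, with the 10 genes whose thinned detection differed most. Intervals and limits cover counting error only. Promoters came from RefSeq (GRCm38.p6), and no coordinate of the deposited build was used. The values of 1 listed gene are not reported here.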

Additional observations from a re-analysis of the deposited data

Results flagged for a closer look

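For 10 genes the diet effect in members differed from that in other cells, by the interaction test (difference in log2 fold change, edgeR adjusted p). Mean levels are CPM over 3 samples. DESeq2 called 0 genes in this comparison (288 at an unadjusted p below 0.05), and without the fibroblast-like cells edgeR called 3, with 0 of these 10 among them.

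Ccl24, an eosinophil-attracting chemokine, averaged 62.7 CPM in HFD and 122 CPM in control members, and 49.98 CPM in HFD and 413 CPM in control other cells (2.14, edgeR adjusted p = 0.00489). Pf4, a platelet factor also made by macrophages, averaged 1258 CPM in HFD and 892 CPM in control members, and 1283 CPM in HFD and 2069 CPM in control other cells (1.19, edgeR adjusted p = 0.00489). Ccl2, a monocyte-attracting chemokine, averaged 569 CPM in HFD and 1311 CPM in control members, and 561 CPM in HFD and 2515 CPM in control other cells (1.04, edgeR adjusted p = 0.0461).

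S100a4 averaged 808 CPM in HFD and 720.4 CPM in control members, and 409 CPM in HFD and 872 CPM in control other cells (1.25, edgeR adjusted p = 0.00489). Il1rn, the interleukin 1 receptor antagonist, averaged 165 CPM in HFD and 59.2 CPM in control members, and 98.4 CPM in HFD and 178 CPM in control other cells (2.22, edgeR adjusted p = 0.00795). In these first 5 genes the mean of control members lay below that of control other cells. In control sample 1, S100a4 stood at 756 CPM in members and 748 CPM in other cells.

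Gngt2 averaged 138 CPM in HFD and 22.2 CPM in control members, and 176 CPM in HFD and 155 CPM in control other cells (2.48, edgeR adjusted p = 0.00489). Nrp2 averaged 94.9 CPM in HFD and 15.9 CPM in control members, and 65.5 CPM in HFD and 61.5 CPM in control other cells (2.52, edgeR adjusted p = 0.0237). Clec4d, a myeloid lectin, averaged 157 CPM in HFD and 27.3 CPM in control members, and 79.0 CPM in HFD and 71.8 CPM in control other cells (2.12, edgeR adjusted p = 0.0434).

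Id3 averaged 61.8 CPM in HFD and 151 CPM in control members, and 301 CPM in HFD and 148 CPM in control other cells (-2.16, edgeR adjusted p = 0.00489). Gpx3 averaged 65.2 CPM in HFD and 47.8 CPM in control members, and 701 CPM in HFD and 153 CPM in control other cells (-1.84, edgeR adjusted p = 0.0361). Fibroblast-like cells were 19.2% of other HFD cells and 2.50% of other control cells.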

How the results depend on the processing

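The mean share of members stayed higher in HFD samples under every alternative run, by 0.479 to 4.24 percentage points. Samples of the diets overlapped after thinning, with at least 5 rule UMIs, with at most 5% mitochondrial UMIs and over barcodes listed in 1 sample. Leaving out 1 sample gave 1.01 to 2.06 for the share and 0.117 to 0.287 for rule UMIs per 10000.

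The 211 diet calls became 418 with no count filter, 341 with at least 2 rule UMIs, 90 with at least 5 and 115 with every deposited entry in its own sample, and 99 to 241 when 1 sample was left out. Of the 90 calls 86 were shared with the 211. The 1102 calls between members and other cells (437 higher, 665 lower) became 2446 (1050 higher, 1396 lower) with every entry in its own sample, 509 (102 and 407) after thinning and 604 (323 and 281) against the members' cluster mix. They became 829 (404 and 425) without fibroblast-like cells and 778 (397 and 381) by DESeq2, and 922 to 1264 when 1 sample was left out. The 21 calls for the difference in diet effect became 11 with DESeq2 size factors, 58 with no count filter, 0 by DESeq2, 13 with at least 2 rule UMIs, 35 with every entry, 9 with at most 5% mitochondrial UMIs, 4 against the cluster mix, 3 without fibroblast-like cells and 8 without lymphoid cells too, and 12 to 81 when 1 sample was left out. The median of all genes in that comparison was 0.19 on the log2 scale with TMM and 0.05 with DESeq2 size factors. The causes were not tested.

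Without fibroblast-like cells 0 of the 14 named falls that were tested kept their call, against all 15 named rises, and Col1a1 and Bgn changed sign. Col1a1 had a log2 fold change of 0.047 without fibroblast-like cells and 0.13 without lymphoid cells too, and Bgn had 0.17 and 0.16 in these fits and 0.13 against the cluster mix.

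Samples with the same number correlated at -0.057, -0.146 and -0.021 in their deviations. Each deviation is from a mean of 3 samples, so these values cannot decide whether the numbers pair the samples. With the number as a replicate block, 167 diet calls, 403 calls between members and other cells (272 higher, 131 lower) and 55 calls for the difference in effect were made, and the shares gave p = 0.25 by exact sign flips, the smallest possible.

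No gene fit was possible over barcodes listed in 1 sample. Shares within a cluster could be compared between diets for a single cluster, at a coarser resolution of 0.5 (difference 1.61 percentage points, exact permutation p = 0.6). It was also named classical monocyte-like, but was a larger set of 173 cells led by Chil3, Cxcl9 and Ly6i. The cluster of that name at resolution 1.0 held 0 members among 123 cells.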
